A study of Mus musculus with 12 samples.

Results

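Interleukins and their receptors were examined in inguinal white fat of mice, a subcutaneous depot near the hind limb, as all rows of the gene table whose symbol begins with Il and a digit. There were 83 such genes among 24344, of which 39 encode ligands or soluble ligand antagonists, 41 encode receptor chains and 3 encode other products. The genes were grouped by cytokine type into the IL-1 family, the common gamma chain cytokines, the type 2 and beta common cytokines, the IL-6 family and the smaller IL-12, IL-10 and IL-17 families. RNA was sequenced from 12 C57BL/6J mice, 3 in each of the groups AKO_8C, WT_8C, AKO_30C and WT_30C, all labelled as 10 weeks old. AKO is labelled IRE1(alpha)-/- and the series title names it as an Ern1f/f AKO line, with Ern1f/f as the WT; the Cre driver is not given in the sources used here. All 12 mice were housed at room temperature for 4 weeks and then at 30 °C for 6 weeks, and a further 3 days at 8 °C or 30 °C followed. Values are FPKM, which correct fragment numbers for the length of a transcript and the size of a library, so that levels can be compared between genes, and read depth is unknown.

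Interleukins are secreted proteins by which immune and tissue cells signal to each other. Most act through receptors made of a ligand-binding chain and a shared signalling chain that activates JAK kinases and STAT factors, whereas IL-1 family and IL-17 family receptors signal through adaptor proteins to NF-kB. In white fat, lymphocytes, mast cells, macrophages and stromal cells carry many of these receptors, and type 2 cytokines and IL-33 are known for maintaining eosinophils, innate lymphoid cells and regulatory T cells there. The inguinal pad also encloses a lymph node, and the labels do not say whether it was removed.

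Ern1, which encodes IRE1, was not lower in the libraries labelled AKO. It was higher in each of them than in any WT library at the same temperature. Its level was 6.83, 6.92 and 7.37 FPKM in AKO_8C and 4.53, 5.16 and 5.20 FPKM in WT_8C, and 4.50, 4.24 and 3.45 FPKM in AKO_30C and 2.53, 3.32 and 2.97 FPKM in WT_30C. A gene-level FPKM sums all exons and cannot show the loss of some of them, and the cause of the higher level was not tested. Genotype is used below as labelled, and every AKO over WT direction rests on those labels. The adipocyte markers were present in all libraries, with summed levels of 8 genes of 46030 to 48320 FPKM in AKO_8C, 41350 to 60940 FPKM in WT_8C, 23840 to 24760 FPKM in AKO_30C and 18650 to 23970 FPKM in WT_30C. WT_8C replicate 1 stood apart by its epithelial markers, which summed to 58.7 FPKM there and to 1.99 to 6.13 FPKM in the other libraries, and calls that change without that library are named below.

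The upstream sequences of 4 receptor genes are shown because they carry the main differences: Il1r2 and Il1rl2 had the largest AKO over WT fold changes at 30 °C and at 8 °C, and Il7r and Il21r had the largest falls in the cold in WT and in AKO. Each is the 250 bases before the RefSeq start (GRCm38.p6), 5′ to 3′ on the strand of the gene, and capitals mark matches, on either strand, to TTCNNNGAA (bound by STAT factors), TGANTCA (AP-1), TGTGGT (RUNX), CGGAAGT (ETS), GACGTG (XBP1) or TTGCATCA (ATF4).
Il1r2, chr1:40085843-40086092, plus strand: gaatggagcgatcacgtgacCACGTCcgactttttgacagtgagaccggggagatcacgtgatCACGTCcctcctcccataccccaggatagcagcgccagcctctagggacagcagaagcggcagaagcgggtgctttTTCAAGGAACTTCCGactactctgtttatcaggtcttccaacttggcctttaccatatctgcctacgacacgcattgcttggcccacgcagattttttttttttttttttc
Il1rl2, chr1:40324339-40324588, plus strand: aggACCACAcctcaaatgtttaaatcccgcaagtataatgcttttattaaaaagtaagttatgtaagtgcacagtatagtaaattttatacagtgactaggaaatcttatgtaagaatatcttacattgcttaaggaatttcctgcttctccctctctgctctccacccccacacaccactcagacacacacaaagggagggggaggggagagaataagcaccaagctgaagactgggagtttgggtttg
Il7r, chr15:9529877-9530126, minus strand: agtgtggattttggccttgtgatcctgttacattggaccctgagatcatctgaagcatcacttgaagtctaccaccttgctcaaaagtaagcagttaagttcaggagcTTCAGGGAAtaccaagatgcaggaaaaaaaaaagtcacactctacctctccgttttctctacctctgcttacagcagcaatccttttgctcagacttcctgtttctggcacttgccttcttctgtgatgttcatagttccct
Il21r, chr7:125603179-125603428, plus strand: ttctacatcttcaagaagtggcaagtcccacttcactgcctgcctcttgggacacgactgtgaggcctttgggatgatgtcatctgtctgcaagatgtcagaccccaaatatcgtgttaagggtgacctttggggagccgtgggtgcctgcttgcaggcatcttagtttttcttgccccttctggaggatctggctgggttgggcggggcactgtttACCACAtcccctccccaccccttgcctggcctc
The Il1r2 window held GACGTG at 2 places, and 1 TTCNNNGAA match that shares its last base with a CGGAAGT match. GACGTG was present in 5.20% of the 32851 such windows of all genes, CGGAAGT in 4.92% and TTCNNNGAA in 7.02%. Il7r held 1 TTCNNNGAA match. Il1rl2 and Il21r held 1 TGTGGT match each, which 4614 of the 32851 windows had, and none of the 4 windows held TGANTCA (6.75% of all windows) or TTGCATCA (0.791%). A match is a description of the letters and not evidence of binding. RefSeq starts can differ from the gene bounds of GENCODE M21 that are given below. By those bounds the Il1r2 window lies inside the gene (40074079 to 40125231), and so does the Il7r window (9505788 to 9530176).

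Receptor chains were expressed at higher levels than ligands. Of the 83 genes, 44 reached 1 FPKM in at least 3 libraries and were tested, 11 of them ligands, 31 receptor chains and 2 others. Mean levels of 10 FPKM or more over the 12 libraries were found for 16 receptor chains, for 1 ligand, Il16, a chemoattractant of CD4+ cells, and for Il4i1, a secreted amino acid oxidase. The highest mean levels were those of Il2rg, the common gamma chain, at 78.5 FPKM, of Il4i1 at 51.4 FPKM and of Il21r, the IL-21 receptor, at 45.8 FPKM. Exons of Il4i1 are annotated as shared with Nup62 and overlap Atf5, exons of Il2rg overlap Gm20489 and those of Il10rb overlap Gm21970, so reads could have been split between these genes. Il11ra1, at 42.1 FPKM, has a near-identical copy, Il11ra2, listed at 0 in all libraries, and overlaps Ccl27a on the other strand, so its level is uncertain too.

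Many cytokine transcripts were at the edge of detection. Of the 39 genes that were not tested, 12 were listed at 0 in all libraries, namely Il3, Il11ra2, Il19, Il20, Il22, Il22ra1, Il31, Il1f5, Il1f6, Il1f8, Il1f10 and Il1rapl2. A further 22 stayed at or under 0.943 FPKM, namely Il2, Il5, Il9, Il10, Il11, Il12rb2, Il13, Il17a, Il17b, Il17c, Il17f, Il1bos, Il1f9, Il1rapl1, Il20ra, Il21, Il23a, Il23r, Il24, Il25, Il27 and Il31ra. The other 5, Il1a, Il1rn, Il5ra, Il6 and Il13ra2, reached 1 FPKM in 1 or 2 libraries. Of the 44 tested genes, 32 were at 1 FPKM or more in every library. The other 12 passed through some libraries alone, which for Il1rl1 were 3 libraries labelled AKO and for Il1b 5 libraries at 8 °C, so that these genes had to differ between those groups to be tested, and counts over the tested genes are descriptions of them.

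**Figure D1:**
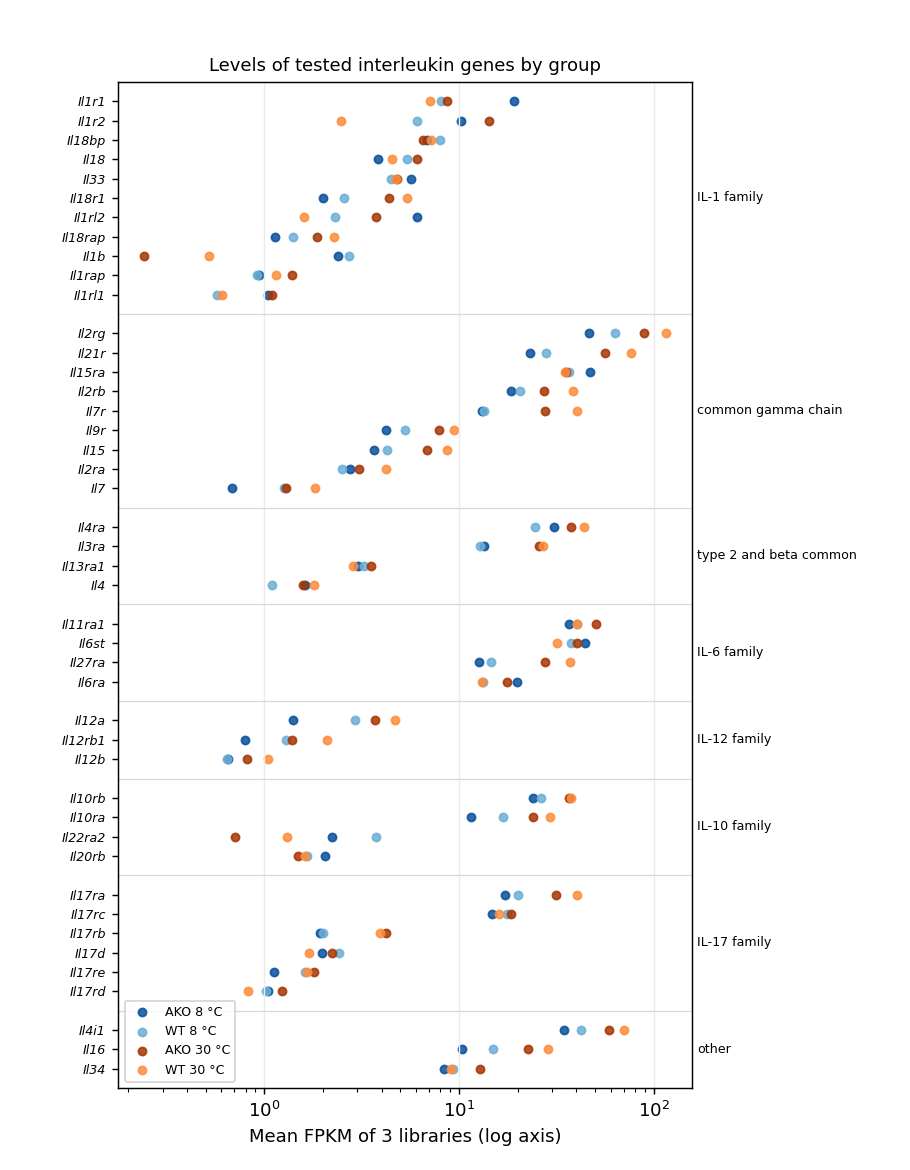
Mean FPKM of each tested interleukin gene in the 4 groups (3 libraries each, log axis), with genes grouped by cytokine type and ordered by level. Il2rg, Il4i1 and Il21r lie highest and left at 8 °C of their points at 30 °C, while Il15ra and Il6st lie right.

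The cold comparisons ask how 3 days at 8 °C changed these genes relative to 30 °C in each genotype. In AKO, 21 of 44 tested genes fell (47.7%) and 3 rose (6.82%), where 23.1% of all 13215 tested genes fell and 26.5% rose. In WT, 19 fell (43.2%) and 0 rose, where 24.7% of all tested genes fell and 24.3% rose; limma had 2 higher before adjustment (p under 0.05). Without WT_8C replicate 1, Il1b and Il1r2 rose in WT, by 1.45 and 1.27 (adjusted p = 0.0127 and 0.0337). Of these genes, 17 fell in both genotypes. The share of all tested genes that fell in both was not computed, so counts of falls in both genotypes, here and below, are descriptions. Without overlap of the temperatures, 20 genes were lower and 3 higher in AKO, where 28.1% and 30.5% of all tested genes were, and 22 were lower and 3 higher in WT, where 29.2% and 28.9% were. The median log2 fold change of 8 °C over 30 °C was -0.41 in AKO and -0.32 in WT over the 44 genes, and 0.00 and -0.01 over all tested genes. A call is an adjusted p under 0.05 from limma with Benjamini-Hochberg adjustment over all tested genes, and fold changes are log2 differences of FPKM plus 1, which understates changes of genes near 1 FPKM. In bulk tissue, fewer cells of a type and less RNA per cell cannot be told apart.

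Genes of the common gamma chain cytokines IL-2, IL-7, IL-9, IL-15 and IL-21, which lymphocytes need to survive and divide, made up the most falls of any type. Of 9 tested genes of this type, 7 fell in AKO and 7 in WT, 6 of them in both. Il2rg, the shared signalling chain on chromosome X, 101264378 to 101268255 (GRCm38), had 48.5, 41.0 and 50.1 FPKM in AKO_8C and 89.7, 93.9 and 84.8 FPKM in AKO_30C. In WT it had 53.4, 66.9 and 68.3 FPKM at 8 °C and 118, 95.6 and 131 FPKM at 30 °C. All cold libraries lay below all 30 °C libraries, and Il2rg fell by 0.93 on the log2 scale in AKO (SE 0.13, adjusted p = 0.000125) and by 0.86 in WT (SE 0.13, adjusted p = 0.000294).

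Il21r, on chromosome 7, 125603429 to 125633570, had 26.4, 16.5 and 26.6 FPKM in AKO_8C and 54.6, 56.3 and 57.9 FPKM in AKO_30C. Its level in WT was 26.04, 25.2 and 32.7 FPKM at 8 °C and 79.9, 63.0 and 84.97 FPKM at 30 °C. These groups were well apart in both genotypes, with log2 fold changes of -1.28 in AKO (SE 0.17, adjusted p = 9.32e-05) and -1.41 in WT (SE 0.17, adjusted p = 6.64e-05). Il7r, the IL-7 receptor that naive T cells and innate lymphoid cells need, lies on chromosome 15, 9505788 to 9530176. It had 8.92, 12.9 and 17.4 FPKM in AKO_8C and 31.9, 28.3 and 22.9 FPKM in AKO_30C, and in WT 15.6, 14.1 and 10.6 FPKM at 8 °C and 45.5, 30.6 and 45.4 FPKM at 30 °C. The groups did not overlap in either genotype, and the log2 fold change was -1.06 in AKO (SE 0.23, adjusted p = 0.00241) and -1.52 in WT (SE 0.23, adjusted p = 0.000251), where it was the largest fall of the 44 genes.

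Il2rb and Il9r fell in both genotypes too, and Il2ra in WT. Il2rb, the IL-2 and IL-15 signalling chain, had 13.4, 17.95 and 23.9 FPKM in AKO_8C and 27.9, 28.6 and 25.2 FPKM in AKO_30C, and in WT 19.2, 21.5 and 21.1 FPKM at 8 °C and 43.4, 28.5 and 43.7 FPKM at 30 °C. It fell by 0.57 in AKO (SE 0.19, adjusted p = 0.0265) and by 0.85 in WT (SE 0.19, adjusted p = 0.00347), with no overlap between temperatures in either genotype. Il9r, the IL-9 receptor, had 4.13, 4.19 and 4.33 FPKM in AKO_8C and 6.49, 10.0 and 7.29 FPKM in AKO_30C, and in WT 4.37, 5.07 and 6.30 FPKM at 8 °C and 10.1, 8.81 and 9.35 FPKM at 30 °C. Cold lowered it by 0.76 in AKO (SE 0.15, adjusted p = 0.00129) and by 0.75 in WT (SE 0.15, adjusted p = 0.00152). Il2ra, the high-affinity IL-2 chain of regulatory and activated T cells, fell by 0.56 in WT (SE 0.16, adjusted p = 0.0129), with 2.71, 2.25 and 2.52 FPKM in WT_8C and 5.42, 3.38 and 3.81 FPKM in WT_30C. In AKO its log2 fold change was -0.12 (SE 0.16, adjusted p = 0.551), with 2.07, 3.07 and 3.15 FPKM in AKO_8C and 3.36, 3.02 and 2.81 FPKM in AKO_30C. The interaction for Il2ra was 0.44 (SE 0.23, adjusted p = 0.395), so a difference between the genotypes was not shown. The WT call for Il2ra was lost without WT_30C replicate 1, at an adjusted p of 0.0612.

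Il15 fell in both genotypes and Il7 in AKO, while Il15ra rose in AKO. Il15, which supports NK and memory T cells, had 3.39, 4.28 and 3.33 FPKM in AKO_8C and 6.39, 5.74 and 8.50 FPKM in AKO_30C, and in WT 3.23, 5.30 and 4.26 FPKM at 8 °C and 9.17, 8.59 and 8.38 FPKM at 30 °C. The temperatures did not overlap, and Il15 fell by 0.75 in AKO (SE 0.16, adjusted p = 0.00252) and by 0.90 in WT (SE 0.16, adjusted p = 0.000806). Il15ra, the chain that presents IL-15 to neighbouring cells, had 45.1, 40.9 and 55.3 FPKM in AKO_8C and 34.8, 36.2 and 35.0 FPKM in AKO_30C, which was a rise by 0.39 (SE 0.14, adjusted p = 0.0290). In WT it was 44.2, 35.6 and 30.6 FPKM at 8 °C and 35.6, 36.6 and 32.3 FPKM at 30 °C, with overlapping groups and a difference of 0.06 in log2 (SE 0.14, adjusted p = 0.718). The Il15ra call was lost after upper quartile scaling (adjusted p = 0.101) and without AKO_30C replicate 1, 2 or 3 or AKO_8C replicate 3 (0.0665, 0.0561, 0.0671 and 0.125). Il7, the ligand of Il7r, had 0.586, 0.625 and 0.825 FPKM in AKO_8C and 1.28, 1.48 and 1.10 FPKM in AKO_30C, and fell by 0.45 (SE 0.13, adjusted p = 0.0118). At 1.16, 1.34 and 1.30 FPKM in WT_8C and 1.60, 1.73 and 2.14 FPKM in WT_30C, it gave a log2 fold change of -0.31 in WT (SE 0.13, adjusted p = 0.0591). This passed with no filter (0.0353), no variance trend (0.0297) and upper quartile scaling (0.0437), and the interaction of Il7 was -0.13 (SE 0.18, adjusted p = 0.756).

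Most listed T and B cell markers fell in the cold too. All 10 tested T cell markers fell in both genotypes, and of 9 B cell markers all 9 fell in AKO and 8 in WT, where 23.1% of all tested genes fell in AKO and 24.7% in WT. Of 6 dendritic cell markers, 5 fell and 1 rose in AKO, and 3 fell in WT. Of 8 adipocyte markers, 4 rose in AKO and 7 in WT, where 26.5% and 24.3% of all tested genes did. Of 3 tested NK and innate lymphoid cell markers, 2 fell and 1 rose in each genotype. Of 4 tested mast cell and eosinophil markers, 4 rose in WT and 0 in AKO. Endothelial markers rose too, 5 of 6 in WT and 3 in AKO. Of 10 macrophage markers, 3 rose in WT and 2 fell in AKO. Of 8 fibroblast and progenitor markers, 3 rose in WT and 2 fell in AKO. The summed level of the T cell markers was 133 to 184 FPKM in AKO_8C and 346.6 to 398 FPKM in AKO_30C, and 184 to 230.2 FPKM in WT_8C and 434 to 618 FPKM in WT_30C. For B cell markers the sums were 266 to 635 FPKM in AKO_8C and 809 to 1111 FPKM in AKO_30C, and 475 to 676 FPKM in WT_8C and 1008 to 1370.0 FPKM in WT_30C. The median log2 fold change was -1.13 in AKO and -1.27 in WT for T cell markers, and -1.34 in AKO and -0.998 in WT for B cell markers. No marker on either list was at 0 in all libraries. WT_30C replicate 2 had the lowest T and B cell sums of its group and also its lowest Il2rg, Il7r, Il21r and Il27ra values. Its macrophage, dendritic cell and NK and innate lymphoid cell sums were the lowest there too, so the match was not particular to T and B cells. The fibroblast and progenitor, endothelium, neutrophil and adipocyte sums of that library were the highest of the group. The part of these cell types in the fall of the receptors was not tested.

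**Figure D2:**
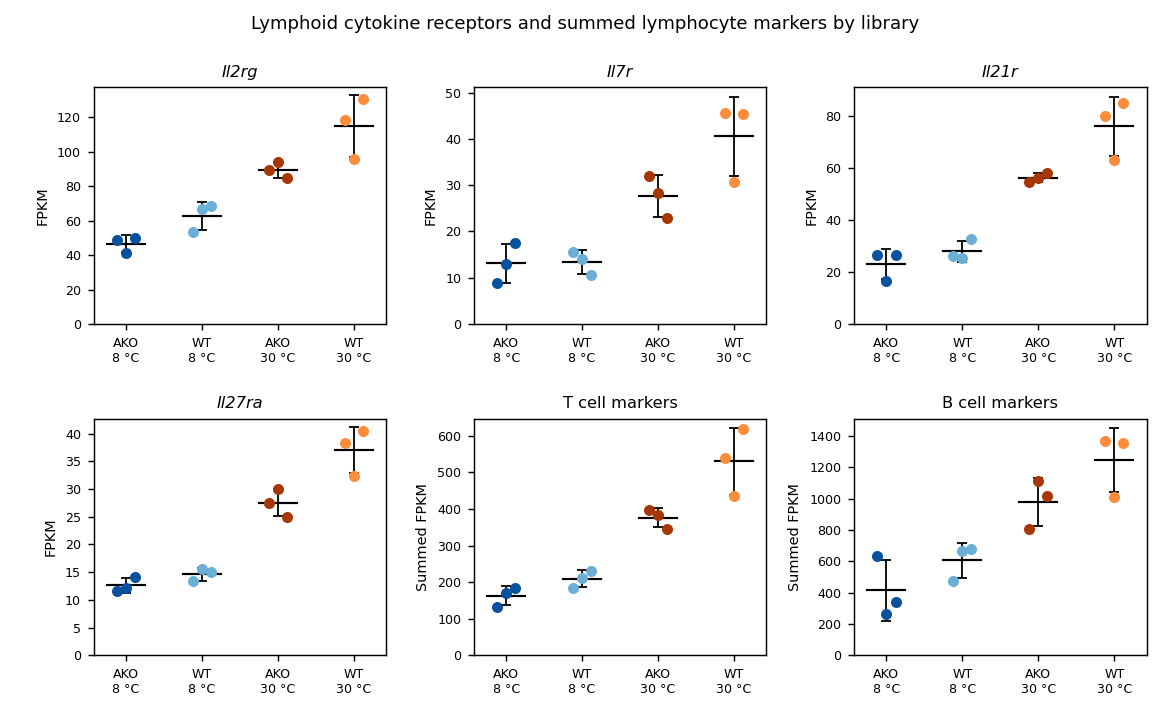
FPKM of Il2rg, Il7r, Il21r and Il27ra and summed FPKM of 10 T cell and 9 B cell markers in each library, by group, with mean ± SD (n = 3 mice). In each panel the 8 °C libraries of a genotype lie below its 30 °C libraries.

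Among type 2 and beta common cytokine receptors, Il3ra fell in both genotypes and Il4ra in WT. Il3ra, the IL-3 binding chain found on plasmacytoid dendritic cells and basophils, had 12.95, 14.03 and 13.5 FPKM in AKO_8C and 23.0, 24.2 and 30.0 FPKM in AKO_30C. In WT it had 12.5, 13.6 and 12.4 FPKM at 8 °C and 29.3, 24.5 and 26.7 FPKM at 30 °C. The libraries of a temperature lay close together and the temperatures far apart, with log2 fold changes of -0.88 in AKO (SE 0.11, adjusted p = 4.54e-05) and -1.01 in WT (SE 0.11, adjusted p = 2.68e-05). Il4ra, the chain shared by the IL-4 and IL-13 receptors, had 36.1, 19.9 and 36.2 FPKM in AKO_8C and 35.6, 42.0 and 34.7 FPKM in AKO_30C, which overlapped (log2 fold change -0.32, SE 0.20, adjusted p = 0.208). In WT it had 21.7, 28.5 and 23.6 FPKM at 8 °C and 47.7, 36.5 and 47.1 FPKM at 30 °C, and fell by 0.81 (SE 0.20, adjusted p = 0.00635). The interaction of Il4ra was 0.49 (SE 0.29, adjusted p = 0.448). Il13ra1, the partner chain that completes the type II IL-4 receptor on non-lymphoid cells, was at 2.55 to 4.08 FPKM over all libraries and passed the test in no comparison. Il4 itself averaged 1.61 ± 1.46 FPKM in AKO_8C, 1.09 ± 0.503 FPKM in WT_8C, 1.58 ± 0.805 FPKM in AKO_30C and 1.80 ± 0.171 FPKM in WT_30C (SD, n = 3) and passed in none either. Il5ra, an eosinophil receptor chain that was not tested, was at 0.224 to 0.291 FPKM in AKO_8C and 0.690 to 1.04 FPKM in AKO_30C, and at 0.221 to 0.519 FPKM in WT_8C and 0.852 to 1.14 FPKM in WT_30C. Fitted with no filter on low values, Il5ra fell by 0.54 in AKO (adjusted p = 0.00169) and by 0.50 in WT (adjusted p = 0.00269).

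In the IL-6 family, Il27ra fell in both genotypes and Il11ra1 in AKO. Il27ra, a receptor of T cells and NK cells on chromosome 8, 84030294 to 84042589, had 11.6, 12.1 and 14.1 FPKM in AKO_8C and 27.5, 30.0 and 25.04 FPKM in AKO_30C. WT libraries had 13.3, 15.6 and 15.0 FPKM at 8 °C and 38.4, 32.4 and 40.4 FPKM at 30 °C. Cold lowered it by 1.07 in AKO (SE 0.11, adjusted p = 1.40e-05) and by 1.28 in WT (SE 0.11, adjusted p = 7.92e-06), the smallest adjusted p of the 44 genes in each genotype. Il6st, which encodes gp130, the signalling chain of most IL-6 family receptors, had 40.3, 40.0 and 53.0 FPKM in AKO_8C and 41.4, 40.0 and 39.7 FPKM in AKO_30C, and in WT 36.1, 42.5 and 34.2 FPKM at 8 °C and 29.7, 34.2 and 32.1 FPKM at 30 °C. Its log2 fold changes of 0.12 in AKO (SE 0.12, adjusted p = 0.407) and 0.22 in WT (SE 0.12, adjusted p = 0.139) did not pass. Il6ra, the IL-6 binding chain, had log2 fold changes of 0.15 in AKO (SE 0.22, adjusted p = 0.579) and 0.00 in WT (SE 0.22, adjusted p = 0.999). Il11ra1 fell by 0.46 in AKO (SE 0.10, adjusted p = 0.00319), with 34.4, 42.3 and 33.3 FPKM in AKO_8C and 46.0, 52.7 and 53.7 FPKM in AKO_30C. In WT it was at 41.3, 42.8 and 37.4 FPKM at 8 °C and 40.8, 39.0 and 41.1 FPKM at 30 °C (log2 fold change 0.01, SE 0.10, adjusted p = 0.969), and its interaction of -0.47 (SE 0.15, adjusted p = 0.202) had the smallest adjusted p of the 44 genes.

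Il6, the family's founding cytokine, was too low to be tested. It had 2.16, 0.243 and 2.79 FPKM in AKO_8C, 0.0672, 0.879 and 0.177 FPKM in WT_8C, 0.0595, 0.143 and 0.0519 FPKM in AKO_30C and 0.186, 0.299 and 0.354 FPKM in WT_30C. AKO_8C replicates 1 and 3 were the only libraries above 1 FPKM, and replicate 2 lay within the range of WT_8C. Fitted with no filter on low values, its log2 fold change of 8 °C over 30 °C in AKO was 1.18 (adjusted p = 0.0230) and that of AKO over WT at 8 °C was 0.89 (adjusted p = 0.252). The same fit called falls in the cold of Il25 in AKO (0.36, adjusted p = 0.00131), of Il17f in AKO (0.12, adjusted p = 0.0327) and of Il21 in AKO and WT (0.28 and 0.27, adjusted p = 0.0392 and 0.0464), all at or under 0.807 FPKM in every library. AKO_8C replicates 1 and 3 had the highest levels of Socs3, a feedback inhibitor induced by gp130 signalling, which had 60.8, 31.7 and 97.4 FPKM in AKO_8C and 12.3, 11.99 and 12.2 FPKM in AKO_30C, a rise of 2.15 (adjusted p = 0.00358). AKO_8C replicate 2 and WT_8C replicate 2, with Il6 at 0.243 and 0.879 FPKM, also had Socs3 above every 30 °C library. Any part of Il6 in the Socs3 levels was not tested. Socs3 in WT was at 10.6, 57.2 and 14.6 FPKM at 8 °C and 15.0, 17.1 and 17.1 FPKM at 30 °C (log2 fold change 0.33, adjusted p = 0.596), and its interaction of 1.82 did not pass (adjusted p = 0.269).

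IL-1 family genes moved in both directions. Il1b, the inflammatory cytokine processed by caspase-1, on chromosome 2, 129364570 to 129371139, had 3.49, 1.24 and 2.47 FPKM in AKO_8C and 0.203, 0.282 and 0.240 FPKM in AKO_30C. In WT it had 0.602, 6.19 and 1.38 FPKM at 8 °C and 0.549, 0.589 and 0.420 FPKM at 30 °C. Every cold library lay above every 30 °C library of its genotype, and Il1b rose by 1.40 in AKO (SE 0.42, adjusted p = 0.0163), while in WT the log2 fold change of 0.99 did not pass (SE 0.42, adjusted p = 0.0708) except without WT_8C replicate 1, its lowest cold library. Without AKO_8C replicate 1 the AKO call was lost (adjusted p = 0.0629). Il1b passed the filter through 5 libraries at 8 °C alone, so it had to be high in the cold to be tested. Its call and lack of overlap are therefore descriptions. Of 5 tested neutrophil markers, 2 rose in AKO and 4 in WT, where 26.5% and 24.3% of all tested genes did. Summed levels of 6 neutrophil genes were 40.2 to 99.2 FPKM in AKO_8C and 5.24 to 52.2 FPKM in AKO_30C, and 41.3 to 112 FPKM in WT_8C and 2.68 to 5.27 FPKM in WT_30C, which overlapped in AKO and not in WT. WT_8C replicate 2 had both the highest Il1b and the highest neutrophil sum of all libraries, but other libraries did not match in this way. AKO_30C replicate 3 had a neutrophil sum of 52.2 FPKM, above AKO_8C replicates 1 and 2 (49.7 and 40.2 FPKM). Its Il1b was 0.240 FPKM, against 3.49 and 1.24 FPKM there. Within AKO_8C, replicate 3 had the highest neutrophil sum and replicate 1 the highest Il1b. No listed neutrophil marker was at 0 in all libraries, and the part of these cells was not tested. An antisense gene, Il1bos, overlaps Il1b, and no source here says whether the counting used strand.

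Il1r1, the signalling IL-1 receptor, rose in the cold in AKO. It had 18.6, 10.3 and 28.4 FPKM in AKO_8C and 9.28, 7.60 and 9.19 FPKM in AKO_30C, which was a rise by 0.95 (SE 0.25, adjusted p = 0.00847). In WT it had 8.57, 8.27 and 7.34 FPKM at 8 °C and 7.03, 6.22 and 7.95 FPKM at 30 °C, which overlapped (log2 fold change 0.17, SE 0.25, adjusted p = 0.598). The interaction was 0.78 (SE 0.36, adjusted p = 0.338), so a different response of the genotypes was not shown.

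The IL-18 receptor chains fell. Il18r1 had 1.26, 2.45 and 2.30 FPKM in AKO_8C and 4.46, 5.26 and 3.40 FPKM in AKO_30C, and in WT 1.71, 3.51 and 2.43 FPKM at 8 °C and 5.64, 4.68 and 5.96 FPKM at 30 °C. It fell by 0.85 in AKO (SE 0.21, adjusted p = 0.00580) and by 0.88 in WT (SE 0.21, adjusted p = 0.00492), with no overlap. Il18rap, the accessory chain, had 0.639, 1.03 and 1.73 FPKM in AKO_8C and 1.73, 2.17 and 1.67 FPKM in AKO_30C, and in WT 1.35, 1.58 and 1.28 FPKM at 8 °C and 2.10, 2.15 and 2.55 FPKM at 30 °C. The temperatures overlapped in AKO and not in WT, and it fell by 0.45 in AKO (SE 0.17, adjusted p = 0.0450) and by 0.44 in WT (SE 0.17, adjusted p = 0.0486), calls close to the threshold that were lost in WT without any of the 6 libraries compared (adjusted p of 0.0607 to 0.142). Both Il18rap calls were also lost with no filter (0.0574 in AKO and 0.0617 in WT), the AKO call with the compared libraries alone (0.0997), and the WT call with pseudocounts of 0.1 and 0.5 (0.0749 and 0.0581) and after median ratio scaling (0.0541). In AKO the Il18rap call was lost without AKO_30C replicate 1, 2 or 3 or AKO_8C replicate 1 or 2 (adjusted p of 0.0615 to 0.183). Il18, the ligand, had 3.36, 5.43 and 2.74 FPKM in AKO_8C and 5.003, 5.90 and 7.37 FPKM in AKO_30C, overlapping groups with a fall of 0.57 (SE 0.22, adjusted p = 0.0436). In WT it was at 4.13, 6.31 and 5.79 FPKM at 8 °C and 3.83, 5.75 and 4.02 FPKM at 30 °C (log2 fold change 0.21, SE 0.22, adjusted p = 0.435), and the AKO call was lost without AKO_30C replicate 2 or 3 or AKO_8C replicate 1 or 3 (adjusted p of 0.0844 to 0.168), with no filter (0.0764) and with the compared libraries alone (0.0585). Il33, the alarmin of stromal cells, was at 3.09 to 9.01 FPKM over all libraries, Il18bp, which neutralises IL-18, at 5.53 to 9.39 FPKM, and neither passed in any comparison.

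The IL-10, IL-12 and IL-17 families and the unclassified genes added 7 falls seen in both genotypes. Il10ra, the IL-10 binding chain of leukocytes, had 13.7, 11.2 and 9.82 FPKM in AKO_8C and 22.7, 27.6 and 21.4 FPKM in AKO_30C, and in WT 12.9, 24.5 and 13.1 FPKM at 8 °C and 29.2, 23.2 and 35.5 FPKM at 30 °C. It fell by 0.99 in AKO (SE 0.23, adjusted p = 0.00339) and by 0.80 in WT (SE 0.23, adjusted p = 0.0115), where WT_8C replicate 2 overlapped WT_30C and the call was lost without WT_30C replicate 3 or WT_8C replicate 1 (adjusted p = 0.0520 and 0.0508). Il10rb, the shared second chain, had 23.9, 23.3 and 24.7 FPKM in AKO_8C and 34.9, 35.7 and 39.2 FPKM in AKO_30C, and in WT 27.7, 23.7 and 27.5 FPKM at 8 °C and 40.4, 34.4 and 38.6 FPKM at 30 °C. It was lower in every cold library, by 0.59 in AKO (SE 0.09, adjusted p = 0.000300) and by 0.51 in WT (SE 0.09, adjusted p = 0.00101). Il17ra, the common IL-17 receptor chain, had 16.4, 15.7 and 19.8 FPKM in AKO_8C and 29.3, 33.5 and 32.1 FPKM in AKO_30C, and in WT 15.3, 21.4 and 23.9 FPKM at 8 °C and 42.1, 33.2 and 45.4 FPKM at 30 °C. Both were falls without overlap, of 0.84 in AKO (SE 0.16, adjusted p = 0.00110) and 0.97 in WT (SE 0.16, adjusted p = 0.000463).

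Il17rb, the IL-25 receptor, had 1.74, 1.61 and 2.46 FPKM in AKO_8C and 3.98, 4.68 and 3.996 FPKM in AKO_30C, and in WT 1.99, 1.495 and 2.48 FPKM at 8 °C and 4.39, 3.94 and 3.44 FPKM at 30 °C, with falls of 0.84 in AKO (adjusted p = 0.000784) and 0.73 in WT (adjusted p = 0.00218). Il16 had 10.4, 9.93 and 10.6 FPKM in AKO_8C and 21.2, 25.1 and 21.6 FPKM in AKO_30C, and in WT 12.7, 17.5 and 14.6 FPKM at 8 °C and 29.2, 26.1 and 30.7 FPKM at 30 °C. No libraries overlapped between temperatures, and Il16 fell by 1.06 in AKO (SE 0.12, adjusted p = 1.84e-05) and by 0.90 in WT (SE 0.12, adjusted p = 9.25e-05). Il4i1 fell by 0.81 in AKO (SE 0.25, adjusted p = 0.0194) and by 0.75 in WT (SE 0.25, adjusted p = 0.0284), with 48.9, 21.3 and 33.1 FPKM in AKO_8C, 32.1, 49.4 and 44.9 FPKM in WT_8C, 56.3, 72.0 and 47.7 FPKM in AKO_30C and 72.6, 75.2 and 63.7 FPKM in WT_30C. Its call was lost without AKO_30C replicate 2 or AKO_8C replicate 2 in AKO (adjusted p = 0.0814 and 0.0782) and without WT_30C replicate 1 or 2 or WT_8C replicate 1 in WT (0.0725, 0.0723 and 0.113) or with no filter (0.0515).

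IL-12 is made of the subunits encoded by Il12a and Il12b. Il12a fell in AKO by 0.91 (SE 0.25, adjusted p = 0.00931), with 1.97, 1.26 and 0.989 FPKM in AKO_8C and 1.77, 4.69 and 4.62 FPKM in AKO_30C. AKO_30C replicate 1 lay within the AKO_8C range. In WT it had 2.97, 2.42 and 3.32 FPKM at 8 °C and 4.30, 4.97 and 4.74 FPKM at 30 °C, with no overlap but no call (log2 fold change -0.54, SE 0.25, adjusted p = 0.0873) except with the compared libraries alone (0.0119). The interaction of Il12a was -0.37 (SE 0.35, adjusted p = 0.650). Il12rb1, the receptor chain shared by IL-12 and IL-23, fell by 0.41 in AKO (SE 0.15, adjusted p = 0.0350) and by 0.45 in WT (SE 0.15, adjusted p = 0.0235). These calls were lost without AKO_30C replicate 2 or 3 or AKO_8C replicate 1 or 3 in AKO (adjusted p of 0.0606 to 0.131) or with the compared libraries alone (0.0508), and without WT_30C replicate 3 or WT_8C replicate 1 or 3 in WT (adjusted p of 0.0630 to 0.0963). Calls for Il2rb in AKO were likewise lost without AKO_30C replicate 1 or 2 or AKO_8C replicate 1 or 2 (adjusted p of 0.0575 to 0.113). Il22ra2, a soluble decoy for IL-22, had 4.45, 0.636 and 1.57 FPKM in AKO_8C, 1.40, 7.26 and 2.51 FPKM in WT_8C, 0.376, 1.34 and 0.400 FPKM in AKO_30C and 0.184, 1.59 and 2.13 FPKM in WT_30C, and passed in no comparison. The remaining tested genes of these types, Il12b, Il17d, Il17rc, Il17rd, Il17re and Il34, passed in none either, and neither did Il1rap, the accessory chain of the IL-1 receptors, which ranged from 0.703 to 1.49 FPKM. Il34, a ligand of the CSF1 receptor, came nearest, with 7.11, 9.88 and 8.02 FPKM in AKO_8C and 10.6, 11.1 and 16.8 FPKM in AKO_30C (log2 fold change -0.55, adjusted p = 0.0548). In AKO, Il34 passed after median ratio scaling (0.0485) and upper quartile scaling (0.0254), with the compared libraries alone (0.0411) and without AKO_30C replicate 1 or AKO_8C replicate 2 (0.0469 and 0.0449). Il1rap passed there as a fall with no filter (0.0427), no variance trend (0.0390) and upper quartile scaling (0.0353), and Il17re after upper quartile scaling (0.0360) and without AKO_30C replicate 2 (0.0405).

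**Figure D3:**
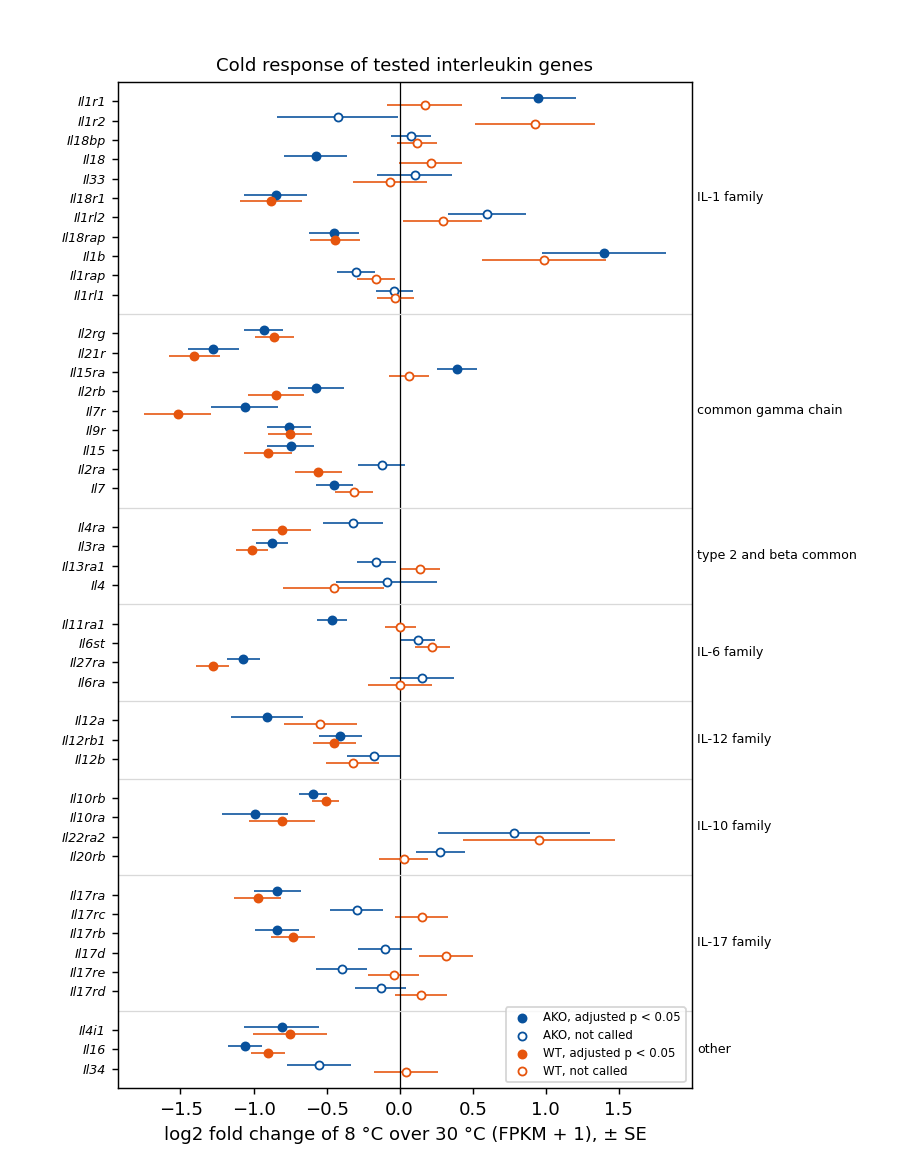
log2 fold change of 8 °C over 30 °C (FPKM + 1) ± SE for each tested gene in AKO and WT, filled where limma's adjusted p was under 0.05. Most filled points lie left of 0, and the filled points right of 0 are Il1r1, Il1b and Il15ra in AKO.

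No gene was called for a different cold response between the genotypes. By limma, 0 of the 44 genes were called for the interaction, which is the genotype difference in the cold less the one at 30 °C, where 0.114% of all tested genes were called, and before adjustment 0 were higher and 3 lower (p under 0.05). These 3 were Il1r2 at -1.35 (SE 0.58, adjusted p = 0.310), Il18 at -0.79 (SE 0.31, adjusted p = 0.272) and Il11ra1, given above.

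The genotype comparisons ask how the libraries labelled AKO differed from WT at each temperature. At 8 °C, limma called 0 of 44 genes, where 2.03% of all tested genes were called, and before adjustment 5 were higher and 5 lower in AKO (p under 0.05). At 30 °C, 1 gene, Il1r2, was higher in AKO (2.27%), where 0.757% of all tested genes were, and 0 were lower, where 0.0378% were; before adjustment limma had 5 higher and 8 lower (p under 0.05). Over the 44 genes the median genotype difference, AKO over WT in log2, was -0.14 at 8 °C and -0.15 at 30 °C, and over all tested genes 0.03 and -0.04. With no overlap of the groups, 3 genes were higher and 7 lower in AKO at 8 °C, where 15.2% and 8.91% of all tested genes were, and 7 were higher and 8 lower at 30 °C, where 8.54% and 10.6% were.

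Receptors of the IL-1 family had the largest AKO over WT differences. Their genes lie side by side on the plus strand of chromosome 1, between 40074079 and 40551705, in the order Il1r2, Il1r1, Il1rl2, Il1rl1, Il18r1 and Il18rap. Il1r2 encodes a decoy receptor that binds IL-1 without signalling, and spans 40074079 to 40125231. It had 10.1, 9.10 and 23.8 FPKM in AKO_30C and 1.96, 2.55 and 2.88 FPKM in WT_30C. All libraries labelled AKO lay above all WT libraries at 30 °C, replicate 3 furthest, and Il1r2 rose by 2.03 (SE 0.41, adjusted p = 0.0463). At 8 °C it had 9.82, 15.2 and 5.54 FPKM in AKO_8C and 3.09, 9.90 and 5.28 FPKM in WT_8C, which overlapped (log2 fold change 0.68, SE 0.41, adjusted p = 0.398). The call at 30 °C lay close to the threshold and was lost when any of the 6 libraries compared was left out (adjusted p of 0.0597 to 0.199, log2 fold change of 1.62 to 2.27). It was also lost with a replicate block (0.0749), after median ratio scaling (0.0577) or upper quartile scaling (0.0505), with no variance trend (0.0528) and with no filter on low values (0.107).

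Some markers of other cell types were higher in AKO at 30 °C too. Summed levels in AKO_30C and WT_30C were 28.5 to 50.7 and 3.29 to 8.60 FPKM for 8 mast cell and eosinophil markers, 886 to 1586 and 409 to 499 FPKM for 8 fibroblast and progenitor markers, 887 to 1330.0 and 597 to 709.7 FPKM for 10 macrophage markers, and 5.24 to 52.2 and 2.68 to 5.27 FPKM for 6 neutrophil markers. Of the tested genes of these lists, 3 of the 4 mast cell genes Cpa3, Tpsb2, Cma1 and Mcpt4, 3 of 8 fibroblast and progenitor genes, 2 of 10 macrophage genes and 1 of 6 endothelial genes rose, where 0.757% of all tested genes did. The eosinophil genes Siglecf, Ccr3 and Epx were all under the filter. Neutrophil sums overlapped between the genotypes and limma called 0 of 5 neutrophil genes, with 1 higher before adjustment (p under 0.05). AKO_30C replicate 3 had the highest Il1r2 and the highest sum of the mast cell and eosinophil, fibroblast, macrophage and neutrophil lists in its group. It also had the highest endothelium, epithelium, adipocyte and NK and innate lymphoid cell sums there, so the match was not particular to those lists. Its T cell and dendritic cell sums were the lowest of the group. No listed gene was at 0 in all libraries, and the part of these cells in the Il1r2 difference was not tested.

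Il1rl2, the IL-36 receptor, spans 40324610 to 40367562 and had 7.60, 4.63 and 5.98 FPKM in AKO_8C and 1.58, 3.76 and 1.57 FPKM in WT_8C. At 30 °C it had 3.03, 2.74 and 5.47 FPKM in AKO_30C and 1.996, 1.37 and 1.42 FPKM in WT_30C. The groups did not overlap at either temperature, but neither the log2 fold change of 1.14 in the cold (SE 0.27, adjusted p = 0.0512) nor that of 0.84 at 30 °C (SE 0.27, adjusted p = 0.191) passed. Without WT_8C replicate 2, the highest of its group, the difference at 8 °C passed (adjusted p = 0.0200). Its ligands of the IL-36 group, Il1f6, Il1f8 and Il1f9, were listed at 0 or stayed at or under 0.353 FPKM.

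Il1r1, on 40225080 to 40317257, was higher in every AKO_8C library than in any WT_8C library, with the values given above and a difference of 1.05 in log2 (SE 0.25, adjusted p = 0.0549). The AKO_8C libraries differed widely among themselves, and without replicate 2 the difference passed (adjusted p = 0.00560). At 30 °C its log2 fold change was 0.27 (SE 0.25, adjusted p = 0.654). Il1rl1, the IL-33 receptor ST2 of mast cells and type 2 innate lymphoid cells, had 0.910, 0.991 and 1.23 FPKM in AKO_8C and 0.529, 0.626 and 0.563 FPKM in WT_8C, and 1.22, 0.879 and 1.19 FPKM in AKO_30C and 0.655, 0.512 and 0.654 FPKM in WT_30C. The groups did not overlap, and neither its log2 fold change of 0.37 in the cold (SE 0.13, adjusted p = 0.135) nor that of 0.38 at 30 °C (SE 0.13, adjusted p = 0.207) passed. Il1rl1 passed the filter through 3 libraries labelled AKO alone, so it had to be high in AKO to be tested, and its lack of overlap is a description. The IL-18 receptor genes at the end of the cluster had log2 fold changes on the other side of 0, with -0.23 at 8 °C and -0.27 at 30 °C for Il18r1 and -0.20 and -0.19 for Il18rap, and none passed.

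**Figure D4:**
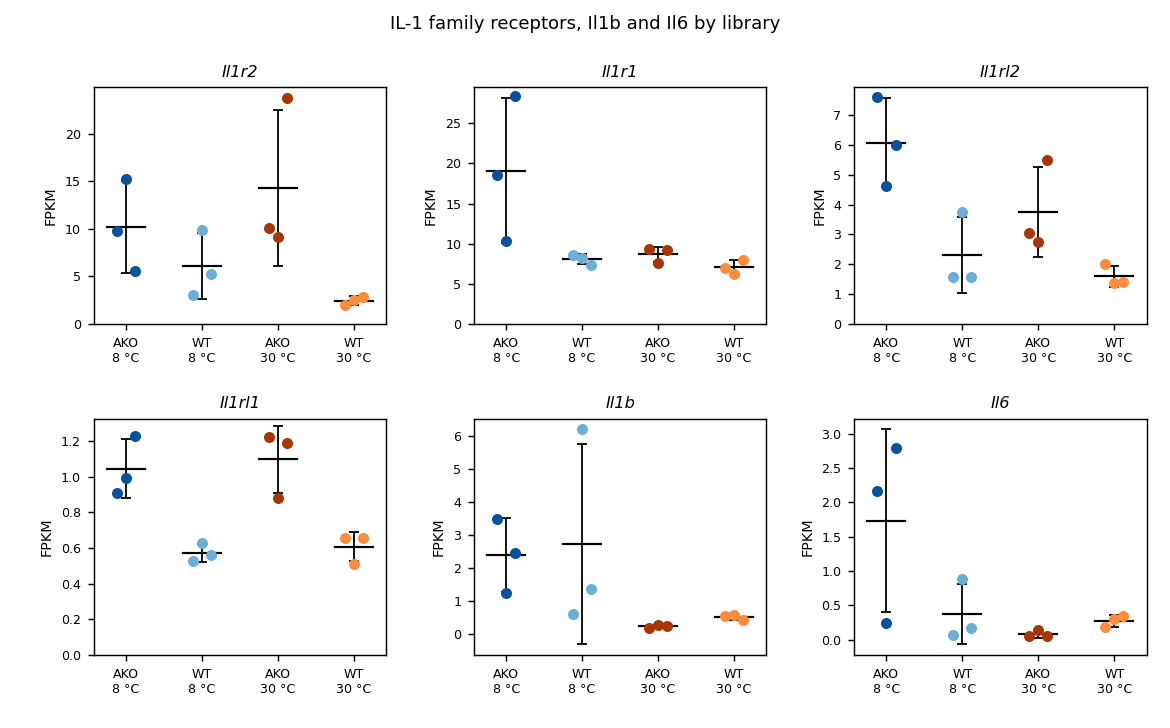
FPKM of 4 IL-1 family receptors, Il1b and Il6 in each library, by group, with mean ± SD (n = 3 mice). Il1rl2 and Il1rl1 are higher in every library labelled AKO than in any WT library at the same temperature, and the AKO_8C libraries spread widely for Il1r1 and Il6.

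Outside the IL-1 family, the smallest adjusted p at 8 °C was that of Il16, lower in all AKO_8C than in all WT_8C libraries (log2 fold change -0.48, SE 0.12, adjusted p = 0.0549), which passed after upper quartile scaling (adjusted p = 0.0491). At 30 °C the same comparison for Il16 gave -0.33 (SE 0.12, adjusted p = 0.238). For Il7 the difference was -0.44 in the cold (SE 0.13, adjusted p = 0.0934), and at 30 °C it was -0.30 (SE 0.13, adjusted p = 0.302), without overlap at either temperature. Il27ra had -0.41 at 30 °C (SE 0.11, adjusted p = 0.129), against -0.21 in the cold (SE 0.11, adjusted p = 0.351), and Il11ra1 had 0.32 at 30 °C (SE 0.10, adjusted p = 0.196). All 10 tested T cell markers also had log2 fold changes below 0 at both temperatures. Of all 13215 tested genes, 6034 did at 8 °C and 7754 at 30 °C. The T cell medians were -0.32 at 8 °C and -0.46 at 30 °C, with 0 called by limma, and before adjustment 3 and 7 were lower (p under 0.05). All 9 B cell markers lay below 0 at both temperatures too, with medians of -0.61 and -0.35 and 0 called. Before adjustment by limma 5 and 1 of them were lower (p under 0.05).

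**Figure D5:**
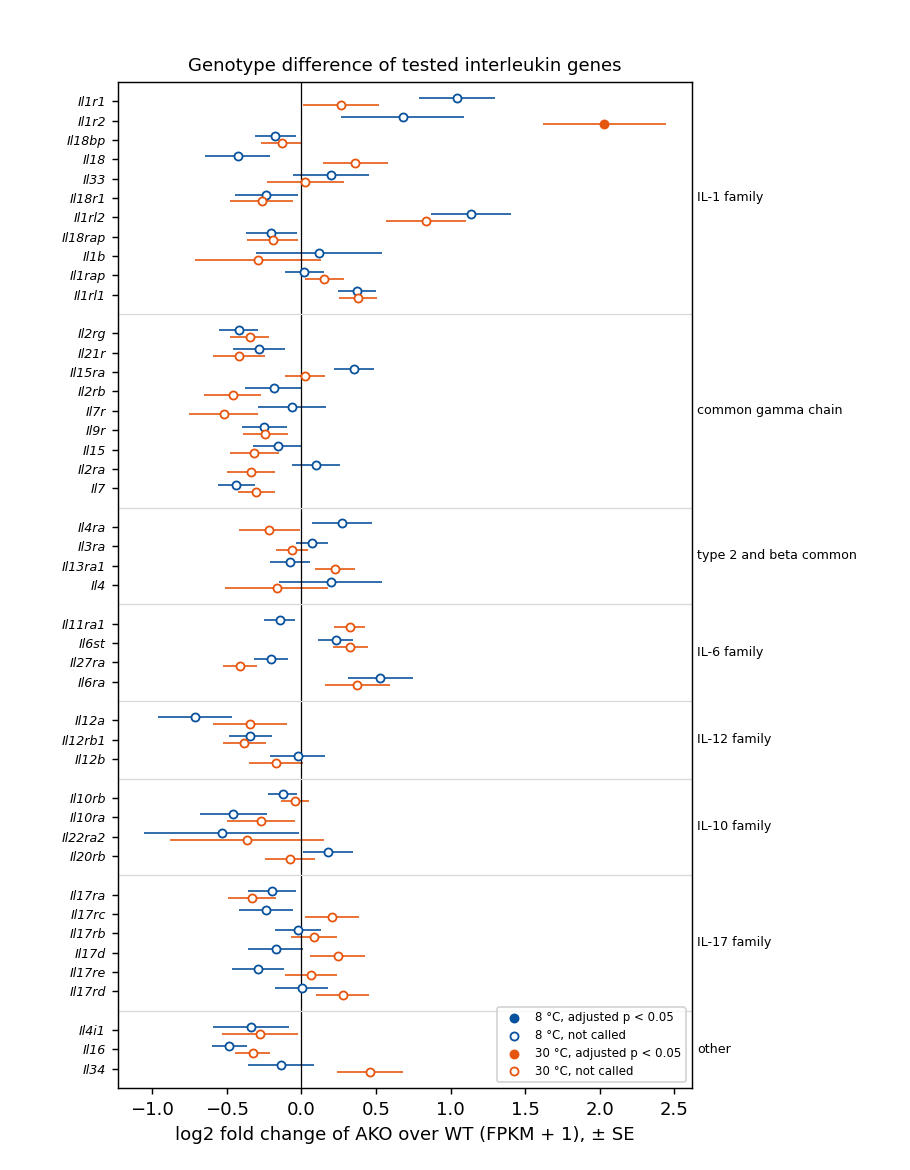
log2 fold change of AKO over WT (FPKM + 1) ± SE for each tested gene at 8 °C and 30 °C, filled where limma's adjusted p was under 0.05. The only filled point is Il1r2 at 30 °C, and Il1rl2 and Il1r1 at 8 °C lie next furthest right.

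The authors' own tests listed more of these genes. Their group FPKM equal the means used here, but their test is a different one and their fold changes have no pseudocount. The authors' deposited table for 8 °C held 10 interleukin genes, 6 higher and 4 lower in AKO, where 51.1% of all its genes were higher, and 9 of the 10 were marked significant. The authors' deposited table for 30 °C held 5, 3 higher and 2 lower, where 79.2% of all its genes were higher, and 4 were marked significant. In the authors' deposited table for 8 °C the log2 fold changes were 2.21 for Il6 (q = 0.00502), 1.40 for Il1rl2 (q = 0.000301), 1.24 for Il1r1 (q = 0.000301), 0.86 for Il1rl1 (q = 0.0146), 0.74 for Il1r2 (q = 0.00577), 0.59 for Il6ra (q = 0.000301), -0.70 for Il12rb1 (q = 0.101), -0.75 for Il22ra2 (q = 0.0123), -0.90 for Il7 (q = 0.0274) and -1.04 for Il12a (q = 0.0194). At 30 °C the authors' deposited table gave 2.54 for Il1r2 (q = 0.000301), 1.23 for Il1rl2 (q = 0.000570), 0.85 for Il1rl1 (q = 0.0142), -0.60 for Il12rb1 (q = 0.102) and -0.89 for Il22ra2 (q = 0.0398). Of these, Il1r2 at 30 °C was the only member also called here by limma. Il12rb1 was lower in every library labelled AKO than in any WT library at both temperatures, with 0.735, 0.907 and 0.755 FPKM in AKO_8C, 0.962, 1.71 and 1.22 FPKM in WT_8C, 1.17, 1.70 and 1.31 FPKM in AKO_30C and 1.97, 2.001 and 2.36 FPKM in WT_30C. Its log2 fold changes by limma were -0.34 at 8 °C (adjusted p = 0.223) and -0.38 at 30 °C (adjusted p = 0.263). Il6ra had 15.8, 16.3 and 27.5 FPKM in AKO_8C and 10.5, 13.1 and 15.9 FPKM in WT_8C, which overlapped (log2 fold change by limma 0.53, adjusted p = 0.208). Il12a had -0.71 at 8 °C by limma (adjusted p = 0.143).

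Receptor partners and signal carriers with other names were taken from a list of 56 genes, of which 55 were tested. In the cold, 8 rose and 18 fell in AKO (14.5% and 32.7%), where 26.5% and 23.1% of all tested genes did, and 7 rose and 22 fell in WT (12.7% and 40.0%), where 24.3% and 24.7% did. The interaction called 0 of the 55 (smallest adjusted p = 0.160 by limma; before adjustment 4 were higher and 3 lower, p under 0.05), so no difference between the genotypes was shown for genes that passed in 1 of them. Cntfr, the binding chain for ciliary neurotrophic factor that pairs with gp130, rose to 42.4, 65.2 and 45.5 FPKM in AKO_8C, against 7.73, 7.18 and 11.97 FPKM in AKO_30C, and to 24.6, 29.5 and 33.9 FPKM in WT_8C, against 8.23, 6.02 and 8.76 FPKM in WT_30C. That was the largest rise of the list, at 2.39 in AKO (adjusted p = 3.00e-06) and 1.81 in WT (adjusted p = 4.08e-05). Clcf1, a ligand of the same receptor, fell by 1.15 in AKO (adjusted p = 0.000116) and by 1.43 in WT (adjusted p = 3.48e-05). Signal carriers that fell in both genotypes included Tyk2, a JAK kinase of IL-12 and IL-10 receptors, by 0.73 in AKO and 0.71 in WT (adjusted p = 1.40e-05 and 2.99e-05), Stat4, the IL-12 signal carrier, by 0.81 and 1.18 (adjusted p = 0.000649 and 5.70e-05), and Sigirr, an inhibitor of IL-1 family signalling, by 0.76 and 0.76 (adjusted p = 0.000208 and 0.000242). Pycard, the inflammasome adaptor, and Gsdmd, the pore through which IL-1 leaves the cell, fell too, Pycard by 0.90 and 0.94 (adjusted p = 0.000129 and 0.000127) and Gsdmd by 0.96 and 0.98 (adjusted p = 3.02e-05 and 3.95e-05). The other falls in both genotypes were Ptpn6 by 1.12 in AKO and 0.99 in WT, Crlf2 by 0.90 and 0.54, Ebi3 by 0.76 and 0.78, Traf3ip2 by 0.60 and 0.46, Pias3 by 0.53 and 0.32, Pias1 by 0.41 and 0.44 and Jak1 by 0.33 and 0.52. Of these, Ptpn6 encodes a phosphatase that damps receptor signals, Crlf2 the TSLP receptor chain and Ebi3 a subunit of IL-27. Genes that passed the test in AKO and not in WT included Stat2, Tslp, Casp1 and Stat5b, which fell by 0.29 to 0.68, and Map3k7, Irak2, Irak3 and Socs3, which rose by 0.38 to 2.15. Genes that passed in WT and not in AKO were Socs1, Osm, Nfkbia, Csf2rb2, Rela, Traf6, Nfkb1, Jak2 and Ptpn2, which fell by 0.32 to 0.85, and Stat5a, Csf1 and Csf1r, which rose by 0.33 to 0.67. Rises in both were those of Cntfr, of Ptpn11, a phosphatase of gp130 signalling, by 1.15 in AKO and 1.05 in WT, of Tollip by 0.44 and 0.29 and of Irak1 by 0.42 and 0.30. Between the genotypes, 2 genes fell in AKO at 8 °C (3.64%) and 0 rose, where 0.568% and 1.46% of all tested genes did, and 0 were called at 30 °C, where 0.757% of all genes were higher and 0.0378% lower and where limma had 2 higher and 6 lower before adjustment (p under 0.05). Stat5a, the carrier of IL-2 and IL-7 signals, fell by 0.51 (adjusted p = 0.0380), with 19.4, 20.1 and 20.1 FPKM in AKO_8C and 34.4, 26.6 and 25.9 FPKM in WT_8C, without overlap. The highest of these values was that of WT_8C replicate 1. The Stat5a call was lost when any of the 6 libraries was left out (adjusted p of 0.0592 to 0.143, and 0.0818 without WT_8C replicate 1), with the compared libraries alone (0.0980) and with no filter (0.0531). Without WT_8C replicate 1 the cold calls of Crlf2, Csf2rb2, Irak1, Ptpn2, Stat5a, Tollip and Traf6 in WT were lost as well (adjusted p of 0.0725 to 0.170). Leaving out some other single library also lost each of these calls, and those of Csf1, Csf1r, Nfkbia and Traf3ip2 in WT. In AKO it lost the cold calls of Casp1, Jak1, Map3k7, Pias1, Stat5b and Tslp. The WT call of Tollip (adjusted p = 0.0497 by limma) was also lost with no filter (0.0576), no variance trend (0.0588) and the compared libraries alone (0.0652).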

How the data were processed

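RNA from 12 mice was measured, 3 per group as given in the sample titles. Per the submitters' processing notes, reads were handled with bcl2fastq, FastQC 0.11.3, TopHat2 2.0.14 and Cufflinks 2.2.1 on build mm10; the annotation and options are not given in the sources used here. The deposited gene table holds FPKM made by the authors, although it is named a count, because whole numbers make up almost none of its nonzero values (99.986% are not whole) and its group means equal the FPKM in the authors' comparison tables (within 0.000688% over 2150 values at 8 °C). Those tables give, per the file headers, the authors' FPKM per group, a log2 fold change without pseudocount, a score from their test, and p-values with q-values. FPKM carry no depth, so no counting error is given. Library sums lay between 594202 and 743185 FPKM, and 12433 to 12818 genes reached 1 FPKM.

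Genes at 1 FPKM or more in at least 3 libraries were tested (13215 of 24344), leaving out Scd1 and Snora81, listed at 0 in some libraries and above 1000 FPKM in others. log2(FPKM + 1) was fitted to group means with a variance trend across the 12 libraries by limma 3.58.1 (R 4.3.3), two-sided, with Benjamini-Hochberg adjustment over all genes tested and a threshold of 0.05. The fit was tested on simulated data. Genes described in full were those called in at least 1 of 5 comparisons, the 4 with the smallest adjusted p in each and those in the authors' tables; Il5ra, Il13ra1, Il4, Il33, Il18bp, Il1rap, the IL-1 receptor neighbourhood and the order among pathway genes were named after their values were seen. The members, lists and tests were chosen with earlier results of these data known. Positions are from GENCODE M21 (GRCm38). Of the 83 symbols, 66 had an entry in the RefSeq promoter table (GRCm38.p6). Alternatives were no filter, pseudocounts of 0.1 and 0.5, the compared libraries alone, a replicate block, no trend, median ratio and upper quartile scaling, and each library left out. The values of 1 pathway gene are not reported here. Figures used Python 3.11.15.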

Additional observations from a re-analysis of the deposited data

How the results depend on the processing

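The cold counts kept within 1.5 times of 24 genes in AKO and 19 in WT under all alternatives, with 19 to 22 called in AKO and 16 to 18 in WT when a library was left out; the rise of 0 genes in WT became 2 without WT_8C replicate 1 and 1 (Il1r2) with the 6 compared libraries alone. The interaction called 0 genes under every alternative. At 30 °C the count of 1 gene for AKO over WT went to 0 with no filter, with a replicate block, with no variance trend, after median ratio scaling and after upper quartile scaling, and lay between 0 and 0 when a library was left out. At 8 °C the count of 0 became 1 with a replicate block (Il1r1, adjusted p = 0.0457) and 1 after upper quartile scaling (Il16), and lay between 0 and 1 when a library was left out. The cause of these changes was not tested. No called fold change of the 44 interleukin or 55 pathway genes turned its sign in any alternative. Fold changes that were not called did so in 122 of 3300 alternative fits of interleukin genes, among them that of Il6ra for cold in WT, which was 0.00 and went down to -0.135. The calls themselves were less stable. Interleukin calls were lost in 61 and gained in 22 of the 3300 fits. Pathway calls were lost in 81 and gained in 35 of 4125 fits. Upper quartile scaling moved the median of all genes for cold in AKO to -0.11 on the log2 scale, and called 2 interleukin genes higher and 24 lower there. Same-numbered libraries did not deviate together, with correlations of -0.109 to 0.156 between groups, so the replicate block pairs libraries that share only a number; it left 24 genes called in AKO and 19 in WT for cold. Over all genes, 105 were called at 30 °C and 268 at 8 °C between the genotypes, 1 and 172 with no filter, 1 and 419 with the replicate block, and 69 and 65 at 30 °C with no trend and after median ratio scaling; with only the 6 libraries compared, 6 were called at 8 °C, and with a library left out 0 to 29 at 30 °C and 23 to 196 at 8 °C. The interaction had 15, and 1, 4, 23 and 9 with no filter, a pseudocount of 0.1, the block and median ratio scaling, and 0 to 17 with a library left out. Genes near 1 FPKM are limited by unknown depth.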
